A study of Gallus gallus with 48 samples.

Results

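The collagen, laminin and integrin genes were the 41 genes, of 6428 named on the array, whose symbol began with COL and a digit, with LAMA, LAMB or LAMC and a digit, or with ITGA or ITGB. They comprised 23 collagen chains, 6 laminin chains and 12 integrin entries, measured by 63 probes. One of the 12, ITGB1BP3, is named after a protein that binds integrin beta-1 and is not itself an integrin. The members were followed in primary anterior pituitary cells of chicken embryos at embryonic day 11, dispersed with trypsin and plated on poly-L-lysine in serum-free medium. Corticosterone (CORT, the main glucocorticoid of birds, at 1e-09 M) was given for 1.5, 3, 6, 12 or 24 h. In one arm it was given alone, and in the other it followed a 1.5 h exposure to cycloheximide (CHX, which blocks protein synthesis, at 10 micrograms per ml), which the labels do not say was removed. Cells with neither agent are called untreated, and cells with CHX for 1.5 h and no CORT are called CHX alone. Each of the 12 groups had 4 arrays, 48 in all, and the labels call them biological replicates. Whether each was its own cell preparation is not stated, and p-values cover the spread among these arrays. No group was held in culture without CORT beyond the start, so the duration of CORT and the time in culture cannot be told apart.

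Collagens are the main structural proteins of the extracellular matrix: fibrillar types form the fibres of connective tissue, type VI forms beaded filaments beside them, and type IV forms the network of basement membranes. Laminins are trimers of an alpha, a beta and a gamma chain that polymerise into the other network of the basement membrane. Integrins are receptors made of an alpha and a beta subunit that bind these matrix proteins outside the cell and the actin skeleton inside it. In the pituitary gland, basement membranes surround the cords of endocrine cells and the capillaries, and fibrillar collagen is made mainly by mesenchymal cells around the vessels. The roles given below are known mostly from human and mouse.

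Each array compared 1 sample, labelled with Cy3, with a pool of all 48 samples, labelled with Cy5. The values are log2 ratios, read as sample over pool. That direction is likely but not stated: it rests on FKBP5, a classical glucocorticoid target, which lay 0.62 to 1.82 higher in all 10 comparisons of CORT with its 0 h group, and if it were opposite every direction below would turn. Between 14609 and 16840 probes had a value on an array. Array pairs correlated between -0.759 and 0.869 over all probes, with 185 of 1128 pairs under -0.3 and a lowest value within a group of -0.689. The first principal component of deviations from the group means, called the axis of spread and computed without the members, took up 48.6% of the variation inside groups. Its score was lowest on arrays of replicate number 1 (median -0.206, against 0.07, -0.002 and 0.116 for numbers 2, 3 and 4), and it entered the tests only as a covariate in an alternative fit. A ratio to a pool does not show whether a gene is expressed at all, so the pituitary identity of the cells could not be checked from absolute levels.

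Of the 41 members, 36 met the filter (no group with fewer than 3 arrays measured) and were tested: 19 collagens, all 6 laminins and 11 integrin entries. The 5 members not tested were COL1A1 (measured on 41 arrays, but on as few as 2 in a group), COL9A2, COL9A3 and ITGA1, and COL12A1, which had no value on any array. Type I collagen, a trimer of COL1A1 and COL1A2 chains, was therefore tested through COL1A2 alone. The group means of a member spanned a median range of 0.51, against 0.40 for all 11207 features tested, and the median SD within groups was 0.25 against 0.23.

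No member passed the test under CORT alone, where differences ran up to -0.51 (COL5A2 at 12 h) and 0.46 (COL4A6 at 3 h, set by 1 array), and the differences that passed in pairs of groups lay at 24 h of CORT after CHX. There COL18A1, a basement membrane collagen, was lower than in both CHX alone and CORT 24 h. ITGA8, an integrin alpha subunit that pairs with beta-1 and binds fibronectin and nephronectin, was lower than in CORT 24 h, and ITGA4, an alpha subunit that binds fibronectin and VCAM1, was higher than in CORT 24 h. A test over all 12 groups added ITGB1, the most widely shared beta subunit. No laminin passed any test in the fit reported here. That fit left out the replicate number. With the number as a block, more members passed at 24 h after CHX, as given below without the share of all features in that fit.

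**Figure D1:**
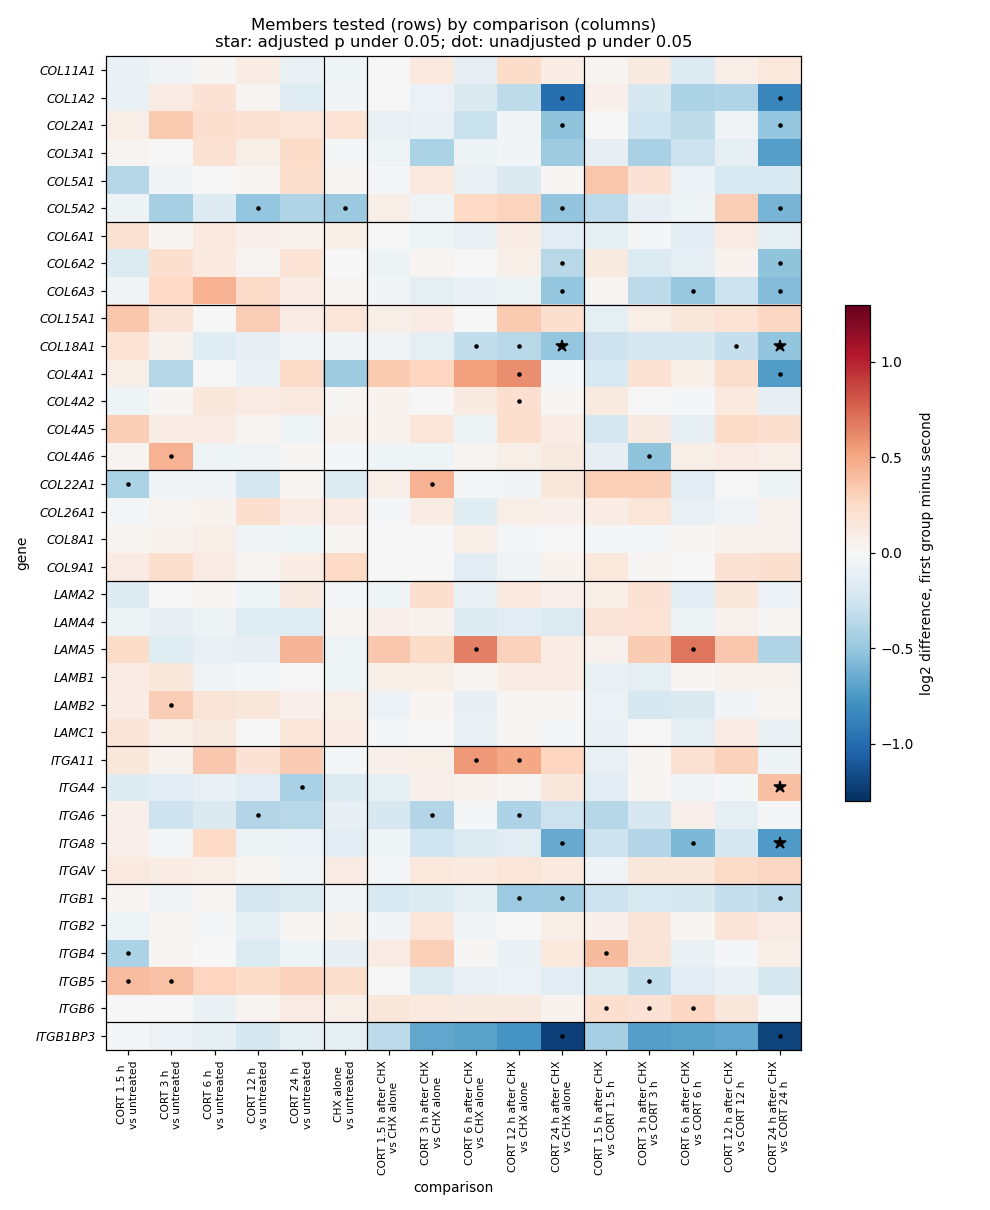
Log2 differences of the 36 members tested (rows, grouped by role) in the 16 comparisons (columns), in colour from lower (blue) to higher (red). Stars mark the 4 differences with an adjusted p under 0.05 and dots the others with an unadjusted p under 0.05, most frequent in the columns for 24 h of CORT after CHX.

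Counts were read against all features. Whether groups overlapped was not counted over all features, so it describes a member's arrays and does not support a difference. Tests were limma's moderated tests, two-sided, with Benjamini-Hochberg adjustment over the 11207 features. Without CHX, 0 of 36 members passed at 1.5, 3, 6, 12 and 24 h of CORT, where 0%, 0.0268%, 0.0982%, 0.0178% and 0.0178% of all features passed. At an unadjusted p under 0.05 the members numbered 3, 3, 0, 2 and 1, against 6%, 1.81%, 2.06%, 2.53% and 2.17% of features. CHX alone against untreated also had 0 members past the adjusted threshold (0.0178% of features) and 1 at the unadjusted one (2.34%). After CHX, against CHX alone, 0 members passed at 1.5, 3, 6 and 12 h (0.0178%, 0.0268%, 1.15% and 1.12% of features), with 0, 2, 3 and 6 at the unadjusted threshold (2.3%, 6.79%, 9.64% and 11.4%), and 1 of 36 passed at 24 h (2.24% of features). The effect of CHX at matched hours of CORT gave 0 members at 1.5, 3, 6 and 12 h (0.393%, 0.161%, 3.93% and 1.4% of features), with 2, 3, 4 and 1 at the unadjusted threshold (10.5%, 6.64%, 14.3% and 11.7%), and 3 of 36 at 24 h (4.95% of features).

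At 24 h of CORT after CHX, 9 of 36 members had an unadjusted p under 0.05 against CHX alone, all lower, where 12.2% of features did in either direction and 7.37% were lower. Against CORT 24 h there were 11 of 36, 10 lower and 1 higher, where 17.5% of features did in either direction and 9.57% were lower. The median member differed by 0.011 and -0.069 in these comparisons, and the median feature by 0.049 and 0.045, so the low values belonged to a subset. By role, the medians were -0.49 and -0.56 for 6 fibrillar collagens and -0.36 and -0.53 for 3 beaded filament collagens, and between -0.03 and 0.12 for the basement membrane and other collagens, laminins and integrin subunits. These comparisons share the arrays of 24 h after CHX.

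**Figure D2:**
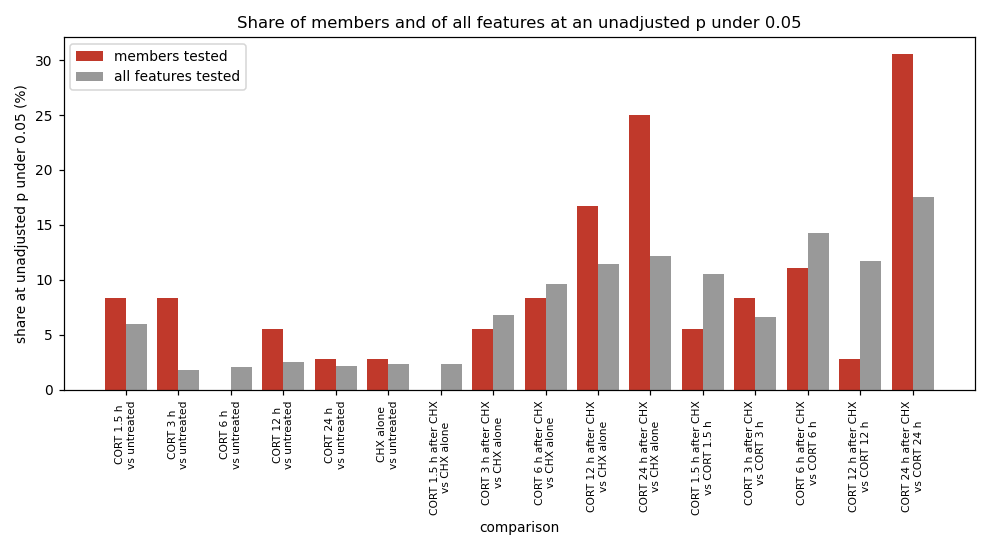
Share of the 36 members (red) and of all 11207 features (grey) with an unadjusted p under 0.05, in percent, in each of the 16 comparisons. The member bar reaches 25% and 30.6% in the comparisons of 24 h after CHX with CHX alone and with CORT 24 h, above grey bars of 12.2% and 17.5%.

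The moderated F-test over all 12 groups called 3 of 36 members, COL18A1 (adjusted p = 0.0096), ITGA8 (adjusted p = 0.0189) and ITGB1 (adjusted p = 0.0393), where 8.37% of features were called. The F-test over the 5 differences in CORT response between the arms called 0 of 36 members and 0% of features in limma. At the unadjusted threshold it marked 4.71% of features, and the lowest member p was that of ITGA4 (unadjusted p = 0.0088, adjusted p = 0.69). A difference between the arms in how a member responded to CORT was thus not shown for any member.

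Among the fibrillar collagens, the low values at 24 h after CHX were shared by COL1A2, COL3A1, COL5A2 and COL2A1, none of which passed the adjusted threshold in the fit reported here. With the axis of spread as a covariate, limma called COL1A2, COL2A1 and COL5A2 against CHX alone. Against CORT 24 h it called COL2A1, COL3A1 and COL5A2. The axis was computed from deviations of these same arrays from their group means. The differences of these genes, measured on all 48 arrays, therefore could not change in that fit, only their spread. COL1A2, the second chain of type I collagen, read -0.82, -1.41, -0.36 and -1.36 on the 4 arrays of 24 h after CHX, -0.88, 0.34, 0.49 and 0.011 in CHX alone, and -1.01, -0.12, 0.74 and -0.16 in CORT 24 h. The groups overlapped at the replicate 1 array, which was low in both comparison groups. The difference was -0.98 (SE 0.41, 95% interval -1.81 to -0.15, adjusted p = 0.278) against CHX alone and -0.85 (SE 0.41, adjusted p = 0.267) against CORT 24 h.

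COL5A2, a chain of the type V collagen that regulates fibril diameter, read -0.57, -0.74, -0.29 and -0.67 at 24 h after CHX. In CHX alone it read -0.60, 0.19, 0.13 and 0.065, and in CORT 24 h -0.41, 0.095, 0.28 and 0.19. All 4 arrays of 24 h after CHX lay below 0, overlapping the replicate 1 arrays of the other groups alone. The differences were -0.51 (SE 0.22, adjusted p = 0.287) and -0.61 (SE 0.22, adjusted p = 0.0974). In untreated cells COL5A2 was at its highest group mean, 0.43 ± 0.46 (SD, n = 4), and it differed by -0.48 in CHX alone and by -0.51 at 12 h of CORT (limma adjusted p = 1 for both, groups overlapping).

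COL3A1, the single chain of type III collagen, averaged -0.26 ± 0.28 (SD, n = 4) at 24 h after CHX, 0.20 ± 0.64 in CHX alone and 0.45 ± 0.77 in CORT 24 h. The replicate 1 array was below 0 in 11 of the 12 groups, the spread was wide, and the differences of -0.46 and -0.71 did not pass (limma adjusted p = 0.753 and 0.367). COL2A1, the chain of cartilage fibrils, is described after its values were seen, as are the members given below only by a range. It read -0.20, -0.46, -0.60 and -0.58 at 24 h after CHX, below all 4 CHX alone arrays (-0.14 to 0.27) and all 4 CORT 24 h arrays (-0.17 to 0.21). Its differences were -0.52 (SE 0.18, adjusted p = 0.124) and -0.50 (SE 0.18, adjusted p = 0.0898). The minor fibrillar chains COL5A1 and COL11A1 stayed between -0.37 and 0.37 in all 16 comparisons.

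**Figure D3:**
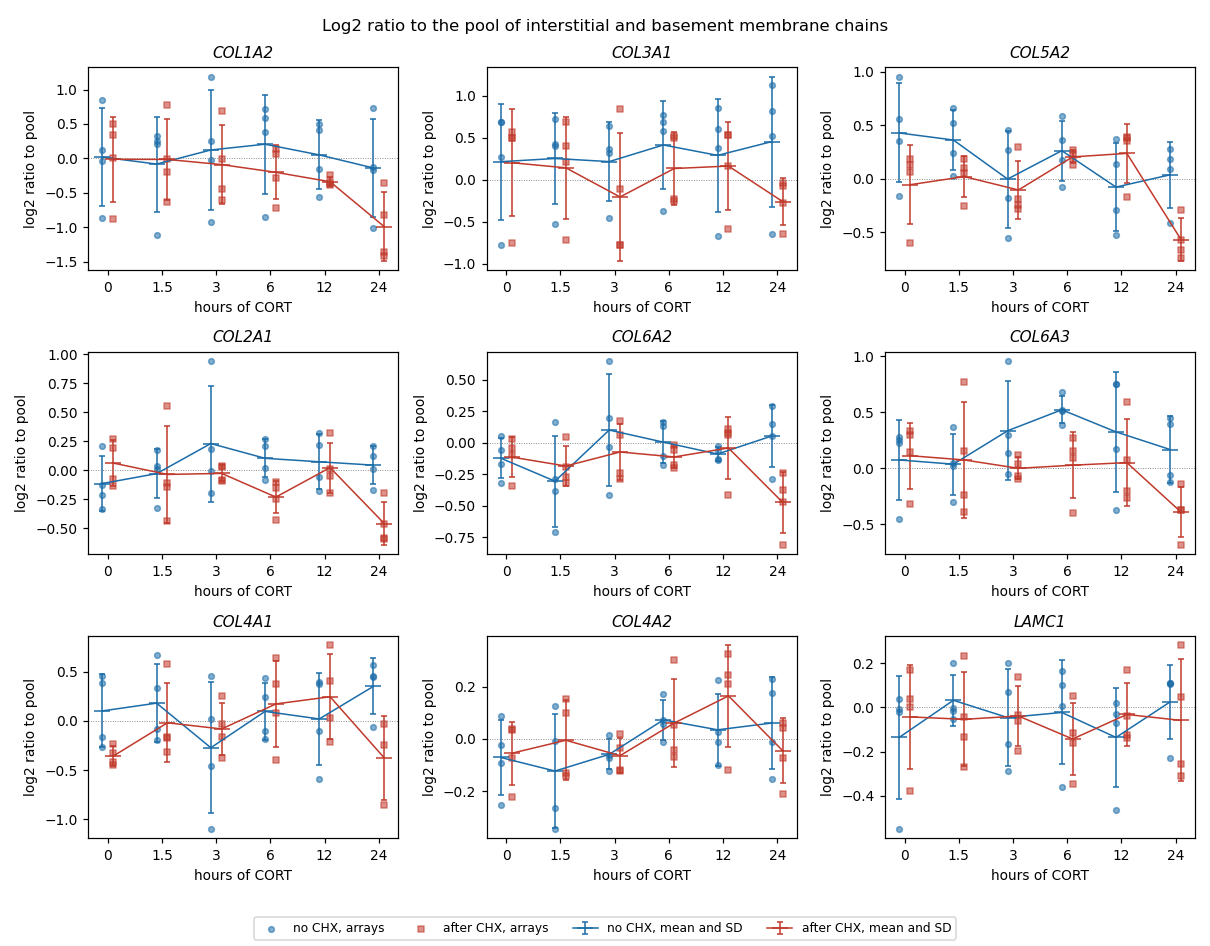
Log2 ratio to the pool (y axis) by hours of CORT (x axis, ordered, not to scale) for 6 interstitial collagen chains (upper 2 rows) and COL4A1, COL4A2 and LAMC1 (bottom row), without CHX in blue and after CHX in red. Points are arrays and bars are means with SD. The interstitial chains drawn and COL4A1 have their lowest mean at 24 h after CHX, while COL4A2 and LAMC1 do not. COL4A1 was nearly as low in CHX alone. The fibrillar chains COL5A1 and COL11A1, not drawn, were lowest at CORT 1.5 h and at CORT 6 h after CHX.

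Type VI collagen, whose 3 chains form beaded filaments, was measured through COL6A1, COL6A2 and COL6A3. COL6A3, the long alpha-3 chain, read -0.14, -0.37, -0.38 and -0.69 at 24 h after CHX. It read -0.12, 0.40, 0.45 and -0.058 in CORT 24 h and -0.32, 0.30, 0.33 and 0.14 in CHX alone. The groups did not overlap against CORT 24 h, by a narrow gap, and overlapped against CHX alone. The differences were -0.56 (SE 0.24, adjusted p = 0.182) and -0.51 (SE 0.24, adjusted p = 0.369). COL6A3 had its highest mean at 6 h of CORT without CHX, 0.52 ± 0.12 (SD, n = 4), with all 4 arrays between 0.38 and 0.68. That group did not overlap with untreated (-0.46 to 0.28), but the difference of 0.45 had an unadjusted p of 0.0652 in limma.

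COL6A2, the alpha-2 chain, read -0.24, -0.81, -0.37 and -0.47 at 24 h after CHX and -0.29, 0.15, 0.055 and 0.30 in CORT 24 h, overlapping at 1 array. The difference of -0.53 (SE 0.17, adjusted p = 0.054) did not pass. Its 2 probes did not move alike: one read -0.92 in that comparison and the other -0.14. Across all 48 arrays their log2 ratios correlated at -0.146. COL6A1, the alpha-1 chain, differed by -0.12 there and by -0.15 to 0.20 over all 16 comparisons. COL6A1 and COL6A2 are adjacent in the current chicken gene table, with COL18A1 separated from COL6A1 by 2 protein-coding genes.

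COL18A1, a proteoglycan collagen of basement membranes whose C-terminal fragment is endostatin, was the only collagen that passed in the fit reported here. That fit left out the replicate number. With the number as a block, limma also called COL1A2, COL2A1, COL5A2, COL6A2 and COL6A3 against CORT 24 h. Against CHX alone it also called COL1A2 and COL2A1. The 4 arrays of 24 h after CHX read -0.35, -0.52, -0.21 and -0.46 for COL18A1. CORT 24 h read 0.10, 0.14, 0.11 and 0.15, the tightest group of this gene, and CHX alone read 0.11, 0.045, -0.23 and 0.56. The groups did not overlap against CORT 24 h, and against CHX alone a single CHX array, replicate 3, reached into the range of 24 h after CHX. COL18A1 was lower by -0.51 against CORT 24 h (SE 0.14, 95% interval -0.80 to -0.22, adjusted p = 0.0288) and by -0.51 against CHX alone (SE 0.14, 95% interval -0.80 to -0.22, adjusted p = 0.0491).

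After CHX the mean of COL18A1 was lower at each later time, going from 0.12 in CHX alone to 0.075, -0.004, -0.20, -0.24 and -0.38. At 6 and 12 h it was -0.32 and -0.36 below CHX alone, at adjusted p = 0.413 and 0.276. Without CHX the means ran between 0.004 and 0.34 with no difference past the threshold. Its 2 probes were not alike, and the stepwise fall after CHX lay in 1 of them. From CHX alone through 24 h after CHX, the probe measured on all 48 arrays averaged 0.347, 0.319, 0.088, -0.235, -0.51 and -0.624. Over the same groups the probe measured on 40 arrays averaged -0.103, -0.168, -0.076, -0.048, 0.037 and -0.122. The probe measured on all 48 arrays differed by -0.97 from CHX alone and -0.70 from CORT 24 h, and the probe measured on 40 arrays by -0.018 and -0.31, and the pair correlated at 0.057 over 40 arrays. Both probes were thus low against CORT 24 h, the second at -0.14 to -0.10 against 0.12 to 0.29 on 3 arrays each, and the difference from CHX alone came from the first. Where the second probe had no value the level is that of the first alone, which was so for 1 array each of 24 h after CHX and of CORT 24 h. It was also so for arrays of other groups, among them replicate 3 of CORT 6 h after CHX. The clones behind the probes were not compared by sequence here, so whether they read the same transcripts was not tested.

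The call against CHX alone was lost when single arrays were left out: CHX alone replicates 1, 2 and 4 (differences -0.51, -0.53 and -0.36) or 24 h after CHX replicates 1, 2 and 4 (-0.52, -0.46 and -0.48). Against CORT 24 h it was lost without CORT 24 h replicates 2, 3 and 4 (-0.51, -0.51 and -0.50) or 24 h after CHX replicates 2 and 4 (-0.46 and -0.48). Both calls were lost with replicate number 1, 2 or 4 left out of all groups (limma adjusted p from 0.0616 to 0.639). The call against CHX alone was also lost under both looser filters on missing values (adjusted p = 0.0523 and 0.054) and with the 2 groups fitted alone (adjusted p = 0.223). The difference stayed below 0 in each of these limma fits.

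**Figure D4:**
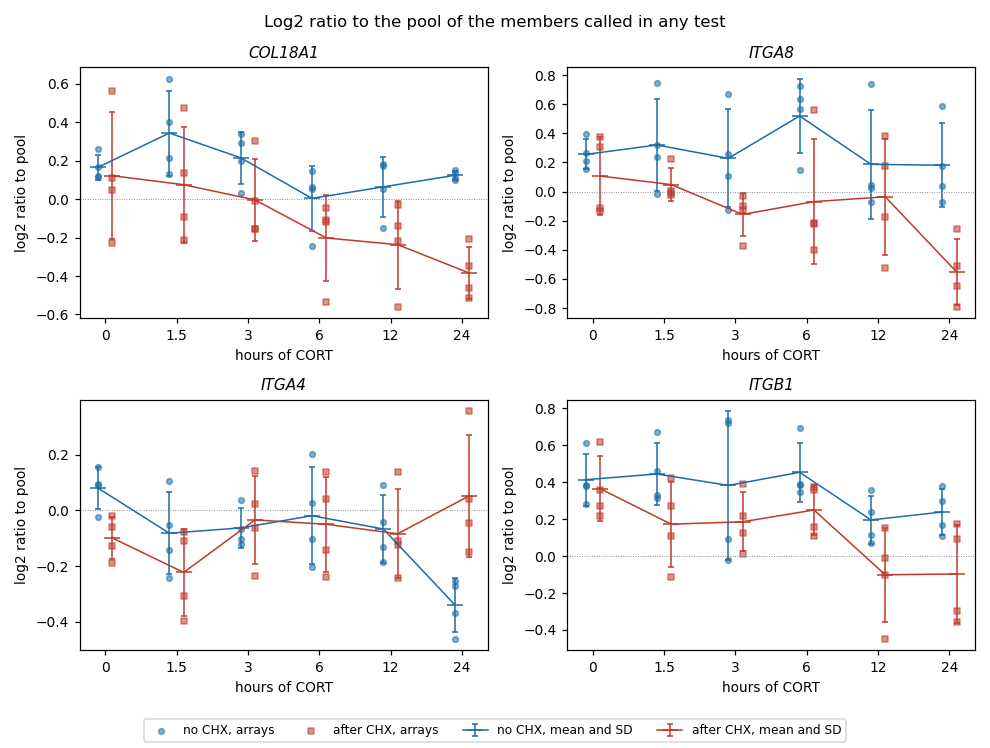
Log2 ratio to the pool (y axis) by hours of CORT (x axis, ordered, not to scale) for the 4 members called in any test, without CHX in blue and after CHX in red. Points are arrays and bars are means with SD; at 24 h COL18A1 and ITGA8 lie lower and ITGA4 higher after CHX, with no overlap between the arms.

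The type IV collagens gave no call. COL4A1, a chain of the main basement membrane heterotrimer, averaged -0.36 ± 0.098 (SD, n = 4) in CHX alone, with its 4 arrays between -0.45 and -0.23. At 12 h of CORT after CHX it read 0.40, -0.22, 0.77 and 0.027, all above the CHX alone arrays, a difference of 0.61 (SE 0.27, adjusted p = 0.365). At 24 h after CHX only 3 arrays gave a value, -0.24, -0.86 and -0.03, and the difference from CORT 24 h was -0.73 (SE 0.29, adjusted p = 0.156, groups overlapping). COL4A2, its partner chain and its direct neighbour in the gene table, differed by 0.22 at 12 h after CHX against CHX alone (adjusted p = 0.43) and by -0.11 at 24 h against CORT 24 h (95% interval -0.33 to 0.11).

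COL4A6, a chain of a minor type IV network, shows how 1 array can set a value. It read 2.02 on the replicate 2 array of CORT 3 h, against -0.05 to 0.067 on the other 3. Its difference from untreated of 0.46 became -0.043 without that array. The 2 probes of COL4A6 correlated at 0.009, and the difference did not remain with 1 probe per gene, as given below. COL4A5 and COL15A1, a basement membrane collagen related to COL18A1, stayed between -0.22 and 0.35 in all 16 comparisons with no call.

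Of the other collagens, COL22A1, known from tissue junctions such as that of muscle and tendon, differed by 0.45 at 3 h after CHX from CHX alone (limma adjusted p = 0.695, groups overlapping) and by -0.41 at 1.5 h of CORT from untreated (limma adjusted p = 0.734, groups overlapping). COL8A1, COL9A1 and COL26A1 differed by at most 0.26 in any comparison. The average of COL8A1 takes in a second probe whose 16 values were all exactly 0.

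Of the laminin chains, LAMB1 and LAMC1, the beta and gamma chains of many laminin trimers, differed by -0.13 to 0.15 and -0.12 to 0.17 over the 16 comparisons. Their group means ranged over 0.20 and 0.18, under the median of 0.40 for all features. For LAMB1 the difference at 24 h after CHX against CORT 24 h was 0.045 with a 95% interval from -0.25 to 0.34. That interval leaves out the COL18A1 estimate of -0.51 in the same comparison. The intervals of LAMB1 and COL18A1 overlapped, however, and these genes were not compared in a test. LAMC1 had 3 probes that disagreed, with 0.31, 0.24 and -0.60 at 24 h after CHX against CHX alone.

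LAMA5, the alpha chain of laminins in mature basement membranes, was the laminin of widest range. It read 0.43, 0.51, 0.71 and 0.46 at 6 h after CHX, above all 4 arrays of CHX alone (-0.92 to 0.24) and of CORT 6 h (-0.42 to 0.014). The differences were 0.66 (SE 0.25, adjusted p = 0.283) and 0.70 (SE 0.25, adjusted p = 0.13). The second passed the adjusted threshold in 3 of 22 alternative fits. By 24 h after CHX its mean was -0.035, against 0.36 in CORT 24 h, and the difference of -0.40 did not pass (limma adjusted p = 0.454), though the groups just failed to overlap. LAMA2, the alpha chain of muscle and nerve laminins, LAMA4, that of vessel laminins, and LAMB2 stayed between -0.20 and 0.32 with no call.

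Among the integrin alpha subunits, ITGA8 read -0.26, -0.79, -0.51 and -0.65 at 24 h after CHX. It read 0.59, -0.07, 0.17 and 0.035 in CORT 24 h and 0.30, -0.11, 0.38 and -0.14 in CHX alone. All 4 arrays lay below both other groups, with no overlap. The difference was -0.73 against CORT 24 h (SE 0.20, 95% interval -1.14 to -0.33, adjusted p = 0.0232) and -0.66 against CHX alone (SE 0.20, 95% interval -1.06 to -0.26, adjusted p = 0.0719). At 6 h after CHX it was -0.59 relative to CORT 6 h (adjusted p = 0.097), where the replicate 1 array after CHX read 0.56 and the other 3 between -0.40 and -0.21. The call at 24 h was lost without CORT 24 h replicate 1 (difference -0.60) or 3 (-0.74), or 24 h after CHX replicate 2 (-0.65) or 4 (-0.70). Leaving replicate number 2, 3 or 4 out of all groups also lost it (limma adjusted p = 0.1915, 0.094 and 0.098).

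ITGA4 ran the other way, and the group that stood apart was CORT 24 h. Its arrays there read -0.46, -0.27, -0.37 and -0.25, against -0.044, 0.36, -0.15 and 0.042 at 24 h after CHX and -0.024, 0.092, 0.16 and 0.096 in untreated cells. CORT 24 h lay below both with no overlap. The difference of 24 h after CHX from CORT 24 h was 0.39 (SE 0.11, 95% interval 0.17 to 0.61, adjusted p = 0.0237). That of CORT 24 h from untreated was -0.42 (SE 0.11, unadjusted p = 0.00034), the lowest p of any member in that comparison, but its adjusted p over all features was 0.516. Against CHX alone, 24 h after CHX differed by 0.15, so no rise over CHX alone was shown. The call was lost without CORT 24 h replicate 1 (0.35) or 3 (0.38), or 24 h after CHX replicate 2 (0.29) or 4 (0.39). Leaving replicate number 1, 2 or 4 out of all groups also lost it (limma adjusted p = 0.0734, 0.36 and 0.0753). It was also lost in limma after quantile normalisation (0.37, adjusted p = 0.051) and with the 2 groups fitted alone (adjusted p = 0.147).

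ITGA11, a receptor for fibrillar collagen, read 0.35, 0.38, 0.43 and 0.37 at 6 h after CHX, above all CHX alone arrays (-0.98 to 0.15), a difference of 0.57 (SE 0.23, adjusted p = 0.344). ITGA6, a laminin receptor subunit, was -0.38 and -0.40 relative to CHX alone at 3 and 12 h after CHX and -0.38 relative to untreated at 12 h of CORT (limma adjusted p from 0.383 to 1, groups overlapping). ITGAV, the alpha subunit of receptors for vitronectin and fibronectin, differed by -0.047 to 0.27.

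Of the beta subunits, ITGB1 was called in the test over 12 groups. Its mean lay between 0.17 and 0.45 in 10 groups and was lowest at 12 and 24 h after CHX, -0.10 ± 0.25 and -0.097 ± 0.27 (SD, n = 4 each). The arrays read -0.009, -0.45, -0.10 and 0.15 at 12 h and -0.36, 0.093, 0.17 and -0.30 at 24 h, all below the CHX alone arrays (0.22 to 0.62). The differences from CHX alone were -0.47 (SE 0.15, adjusted p = 0.134) and -0.46 (SE 0.15, adjusted p = 0.0966), neither past the threshold on its own. Its 2 probes, both on 48 arrays, differed by -0.78 and -0.15 at 24 h and correlated at -0.153 across arrays.

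ITGB5, a beta subunit that pairs with alpha-V, read 0.26, 0.59, 0.55 and 0.73 at 1.5 h of CORT and 0.41, 0.58, 0.45 and 0.58 at 3 h. Untreated cells read -0.084, 0.13, 0.21 and 0.24, below both groups with no overlap. The differences were 0.40 (SE 0.16, adjusted p = 0.608) and 0.38 (SE 0.16, adjusted p = 1). ITGB6, another partner of alpha-V, differed by 0.22, 0.19 and 0.27 at 1.5, 3 and 6 h after CHX from the same hours without CHX. The lowest limma adjusted p of these was 0.0931. The 2 probes of ITGB6 carry the same clone, yet correlated at only 0.207 over 48 arrays. ITGB4, the partner of alpha-6 in hemidesmosomes, differed by -0.41 at 1.5 h of CORT from untreated and by 0.41 at 1.5 h after CHX from CORT 1.5 h (adjusted p = 0.648 and 0.359). ITGB2, the beta subunit of leukocytes, gave no call.

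ITGB1BP3 had the widest range of the members, with means from 0.41 in untreated cells to -0.92 at 24 h after CHX. Its arrays at 24 h after CHX read -1.12, -1.26, -0.48 and -0.81, below all CHX alone arrays (-0.27 to 0.64), a difference of -1.21 (SE 0.43, adjusted p = 0.149). Against CORT 24 h the difference was -1.20 (SE 0.43, adjusted p = 0.094), with overlap at the replicate 1 array (-0.81). It tracked the axis of spread at a correlation of 0.874.

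**Figure D5:**
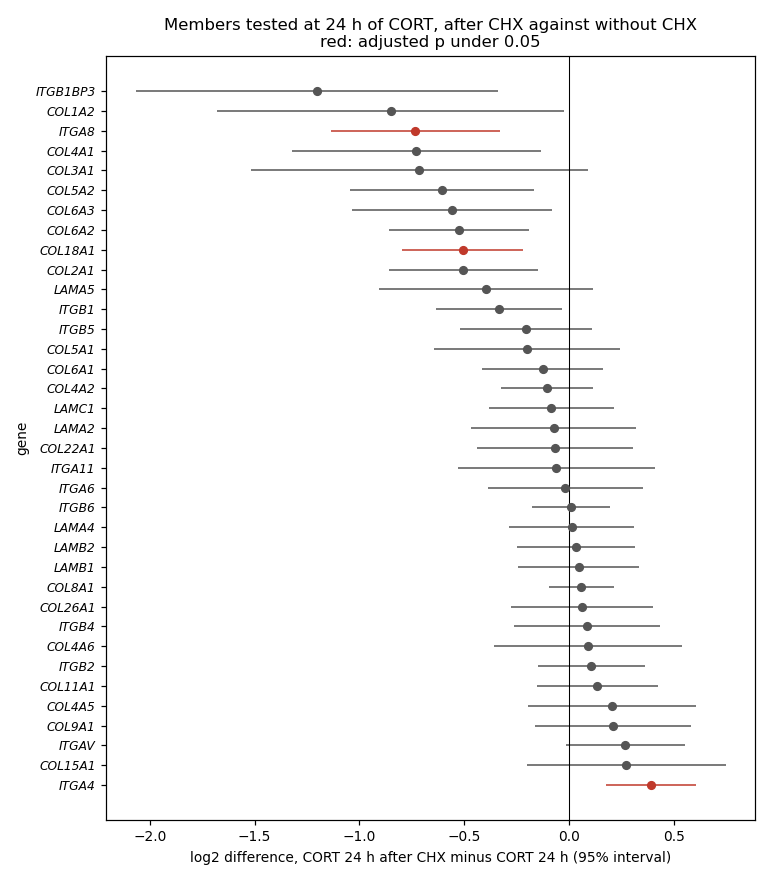
Log2 difference of 24 h of CORT after CHX minus CORT 24 h (x axis) with its 95% interval for each of the 36 members tested (y axis), ordered by size. The members called, in red, are ITGA8 and COL18A1 on the low side and ITGA4 on the high side, and 21 of 36 members lie below 0, as do 41.3% of all features.

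Members did not vary as 1 block. Over 630 pairs of members, the median correlation of deviations from the group means across arrays was 0.024. Many followed the axis of spread, in opposite directions: COL3A1 (0.898), ITGB1BP3 and COL5A2 (0.783) rose along it, whereas ITGAV (-0.888), COL9A1 (-0.875), COL4A5 (-0.842) and LAMA2 (-0.821) ran against it. COL18A1 (0.131), ITGA8 (-0.346), ITGA4 (0.392) and ITGB1 (0.377) followed it less. Along replicate numbers, the number 1 array was the lowest of its group in 10 of 12 groups for COL1A2 and COL3A1, and the highest in 11 of 12 for COL4A5, COL15A1 and ITGAV. The labels give no meaning to the numbers.

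Chains of the same molecule or receptor, and COL3A1 with COL5A2, were compared over the arrays as deviations from group means. There were 9 pairs with both genes tested. Some of these genes are averages of probes that did not vary alike. Across arrays, the probes of ITGB1 correlated at -0.153 and those of COL6A2 at -0.146. Those of LAMC1 correlated at 0.19, -0.191 and -0.519. COL3A1 and COL5A2 belong to different collagen types, and their genes are direct neighbours in the current chicken gene table. Permutation within groups treated the arrays as independent. Arrays of the same replicate number deviated together (median correlation 0.421), so the p-values of all pairs can be too low. With it, COL3A1 and COL5A2 had Pearson's r = 0.756 and Spearman's rho = 0.676 (n = 48). The permutation p was 1e-05 for both, the smallest that 100000 permutations can give, and the adjusted p was 9e-05 over 9 pairs. Without the 2 arrays farthest from the median, r was 0.71, and within replicate numbers 1 to 4 it was 0.92, 0.726, 0.282 and 0.613. After removal of the axis r was 0.194, so most of this relation lay along the axis.

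ITGA6 and ITGB1, which form a laminin receptor, had r = 0.533 and rho = 0.526 (permutation p = 0.0013 and 0.0011, adjusted p = 0.0039 and 0.0033). That relation was 0.549 without the 2 farthest arrays and 0.407 without the axis, but 0.543, 0.74, -0.213 and 0.214 within replicate numbers 1 to 4, so it did not hold within number 3. LAMA2 with LAMB2 (r = 0.572, rho = 0.596, permutation p = 0.00048 and 0.00016, adjusted p = 0.0022 and 0.00072) gave 0.558 without the 2 farthest arrays, 0.665, 0.522, 0.246 and 0.271 within numbers, and -0.239 without the axis. LAMB1 with LAMC1 (r = 0.437, rho = 0.471, permutation p = 0.0061 and 0.0033, adjusted p = 0.014 and 0.0074) gave 0.388 without the 2 farthest arrays and 0.427, -0.048, -0.088 and -0.414 within numbers, so it did not hold within numbers 2 to 4, and it was 0.228 without the axis.

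The neighbours COL4A1 and COL4A2 had r = 0.298 and rho = 0.302 over 47 arrays (permutation p = 0.071 and 0.076, adjusted p = 0.08 and 0.098), and 0.279 without the 2 farthest arrays. Within numbers 1 to 4 it was 0.351, 0.589, 0.511 and 0.559, and 0.501 without the axis. The other 4 pairs, COL6A1 with COL6A2, COL6A2 with COL6A3, COL5A1 with COL5A2 and ITGAV with ITGB1, did not pass after adjustment.

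Genes that act on or beside the members were read from 4 lists, and the 2 comparisons at 24 h after CHX share its arrays. The lists were chosen with earlier results of these data known, so their counts describe the lists and do not test for an excess. Of 40 matrix glycoproteins and proteoglycans tested, 5 were lower and 0 higher at 24 h after CHX than in CHX alone, and 7 were lower and 0 higher than in CORT 24 h, where 1.6% and 2.73% of all features were called lower. With values against CHX alone and CORT 24 h in that order, these included THBS2, a matricellular thrombospondin (-1.95 and -1.73, adjusted p = 0.00037 and 0.0013), OGN, a small leucine-rich proteoglycan (-1.21 and -1.24), TGFBI, an adhesion protein that binds collagen and integrins (-1.02 and -1.08), and GPC3, a cell-surface heparan sulfate proteoglycan (-0.54 and -0.51). FN1, fibronectin, a ligand of ITGA8 and ITGA4 receptors, was lower than in CHX alone (-0.69, SE 0.18, adjusted p = 0.025). NID2, a linker of laminin and type IV collagen (-0.58, adjusted p = 0.0337), and CCDC80, a secreted matrix protein (-1.31, adjusted p = 0.00051), were lower than in CORT 24 h. CCDC80 was also higher at 6 h of CORT without CHX than in untreated cells (1.05, adjusted p = 0.0383). The list medians were 0.005 and 0.01, against 0.049 and 0.045 for all features.

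Of 17 genes of collagen synthesis and processing tested, 0 passed in any comparison. At 24 h after CHX, 14 of 17 lay below CHX alone, where 39.6% of all features did, with a list median of -0.12. The mean of the list was -0.22 to -0.12 on the 4 arrays of 24 h after CHX and -0.027 to 0.02 in CHX alone. Of 16 matrix proteases and inhibitors, CTSB, a lysosomal protease, was lower at 24 h after CHX than in CHX alone (-0.64, adjusted p = 0.0236). Of 32 integrin adaptors and focal adhesion genes, RAP1A, a GTPase that activates integrins, was higher at 6 h after CHX than in CHX alone (0.90, adjusted p = 0.0119), and ACTN1, which links integrins to actin, was higher at 6 h after CHX than in CORT 6 h (0.83, adjusted p = 0.0042). None of those 32 passed at 24 h after CHX.

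Markers of several cell types also differed at 24 h after CHX. Of 10 fibroblast and mesenchyme markers tested, ACTA2, smooth muscle actin (-0.74 and -0.87), was lower than in CHX alone and than in CORT 24 h, FN1, which the glycoprotein list also holds, was lower than in CHX alone, and PRRX1, a mesenchymal transcription factor, was higher than in CORT 24 h (0.48). The mean of the list was between -0.30 and -0.073 on the arrays of 24 h after CHX, against -0.026 to 0.13 in CHX alone and -0.091 to 0.11 in CORT 24 h. The list was not lower as a whole: its median differences were -0.15 and -0.11, with 4 and 5 of 10 markers above 0. Of 12 pituitary endocrine markers, TSHB, the thyrotropin beta chain (-1.78), and CHGA, chromogranin A (-1.38), were lower than in CORT 24 h, with list means of -0.20 to -0.11 against 0.066 to 0.16. Those genes carried most of that shift: the list's median difference was -0.039, with 5 of 12 above 0. Of 7 neuron and glia markers TUBB3, a neuronal tubulin, was lower than in CORT 24 h (-2.19), with list means of -0.53 to -0.15 against -0.14 to 0.20. TUBB3 carried most of it, the median difference of the list being -0.11 with 2 of 7 above 0. Of 8 endothelial markers 0 passed in limma (1 at the unadjusted threshold), and all 8 lay above CHX alone, as did 60.4% of all features, with list means of -0.039 to 0.21 against -0.24 to 0.046. Against CORT 24 h, 5 of 8 lay above 0, and its list means of -0.19 to 0.17 overlapped. The lists for cartilage and muscle (3 genes tested), red blood cells (2), immune cells (4) and folliculostellate or stem cells (1) had 0 calls at 24 h after CHX, with 1 red blood cell gene at the unadjusted threshold. The part of these shifts in the members' values was not tested, and in such mixed cultures fewer cells of a type and less RNA per cell cannot be told apart.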

How the data were processed

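The deposited log2 ratios of 19200 probes on 48 two-colour cDNA arrays were used as the authors gave them. RNA was primed at the poly(A) tail and linearly amplified before dye coupling, per the labels' protocols, which favours transcript 3' ends. Background correction and normalisation are not given in the sources used here. Array medians of -0.038 to 0.048 and SDs of 0.301 to 0.324 show values centred and scaled before deposit, which removes differences in total RNA. Base 2 was inferred: among 739065 nonzero values, 632 matched at 8 decimals a log2 of small whole-number ratios, against 77 matches for the natural log and 127 for log10, so it rests on few values. Exact zeros made up 2.34% of values. No spot intensities were used, so signal over background is unknown.

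In the platform annotation 10601 probes carried 1 symbol, 0 carried several and 8599 carried none. RefSeq's current gene table (assembly GRCg7b) held the gene of 10455 of them (40 of 41 members, COL1A2 being the exception). Probes of a symbol were averaged. Features with a value on 3 of 4 arrays in each group (11207 of 15027) entered 1 group-means fit with limma 3.58.1 in R 4.3.3, with 36 residual degrees of freedom and a threshold of 0.05. The fit was run on simulated data whose arrays deviated independently. The arrays here did not, so that run does not show how often the fit calls falsely on them. Genes named are members called, the 3 widest in each role group, a short list of common chains, and the lowest p per comparison. Members and lists were chosen with earlier results of these data known. Alternatives covered filters, probe averaging, exact zeros, quantile normalisation, array weights, the replicate number, the axis of spread, the variance prior, fits of 2 groups and left-out arrays. Sequences of probes and genes were not used here.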

Additional observations from a re-analysis of the deposited data

Results flagged for a closer look

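Of 330 group levels of the 28 named genes, 26 held an array that stood apart, its gap to the nearest of the other 3, as a share of the group's range, being above Dixon's 95% critical value for 4 samples. Chance alone marks about 1 group in 20. The values are log2 ratios to the pool.

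Among fibrillar and beaded filament collagens, COL1A2 stood at -1.11 in CORT 1.5 h replicate 1, with the others from 0.22 to 0.32. COL3A1 stood at -0.37 in CORT 6 h replicate 1 and at -0.75 in CHX alone replicate 1, with the others from 0.49 to 0.76. COL5A2 stood at -0.60 in CHX alone replicate 1, at 0.30 in CORT 3 h after CHX replicate 4, and at -0.17 in CORT 12 h after CHX replicate 2. COL6A1 stood at -0.39 in CORT 3 h after CHX replicate 4, COL6A2 at -0.41 in CORT 12 h after CHX replicate 2, and COL6A3 at -0.46 in untreated replicate 4.

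Among basement membrane and other collagens, COL18A1 stood at -0.53 in CORT 6 h after CHX replicate 3, where the others lay from -0.12 to -0.048. On that array only the lower of its probes gave a value, while the others averaged both probes. That lower probe alone ran from -0.534, on this array, to -0.053 in the group, with a mean of -0.235. The part of the missing probe in the gap was not tested. COL4A6 stood at 2.02 in CORT 3 h replicate 2 and at -0.43 in CORT 12 h after CHX replicate 4. COL22A1 stood at -0.50 in CORT 1.5 h after CHX replicate 2 and at -0.19 in CORT 24 h after CHX replicate 3.

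Among laminins, LAMA2 stood at 0.46 in CORT 24 h replicate 1, and LAMC1 at -0.55 in untreated replicate 4 and at -0.23 in CORT 24 h replicate 4. Among integrins, ITGA11 stood at -0.98 in CHX alone replicate 1, ITGA8 at 0.74 in CORT 12 h replicate 3 and 0.22 in CORT 1.5 h after CHX replicate 3, and ITGAV at -0.036 in CORT 12 h after CHX replicate 4. ITGB1 stood at 0.69 in CORT 6 h replicate 2. ITGB6 stood at 0.28 in CORT 3 h after CHX replicate 3, at 0.28 in CORT 6 h after CHX replicate 4 and at 0.20 in CORT 24 h after CHX replicate 4. ITGB1BP3 stood at -0.98 in CORT 1.5 h after CHX replicate 1.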

How the results depend on the processing

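The count of 0 members called held in all 22 alternatives for each of the 5 CORT comparisons with untreated, for CHX alone and for 1.5 h after CHX. At 24 h after CHX against CHX alone, the 1 member became 0 under either looser filter (a value on 2 of 4 arrays, or on 24 of 48), 7 with array weights, 7 with the axis of spread as covariate and 6 with the replicate number as a block (0 to 2 with single arrays or numbers left out). Against CORT 24 h the 3 members became 13, 9 and 10 in those last 3 fits, in that order (0 to 6 with arrays or numbers left out, the numbers being left out after seeing the data). The test over 12 groups gave 23, 13 and 11 in place of 3 (0 to 5, and 1, COL18A1, without 24 h after CHX replicate 4). Every call reported for these comparisons remained in the weighted, axis and block fits. The share of all features called in the alternative fits is not given here. The member counts, here and below, therefore show nothing particular to the members. In the axis and block fits the differences of genes measured on all 48 arrays could not change, only their spread.

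At 6 h after CHX against CORT 6 h, 0 became 4 with the axis, 3 with the block and 1 with the 2 groups fitted alone (0 to 1 with arrays left out). At 12 h after CHX against CHX alone it became 2 with the axis and 1 each with array weights, the block or 1 probe per gene. The remaining shifts from 0 were 4 with array weights at 3 h after CHX against CHX alone, 1 with them against CORT 3 h, and, with the axis, 2 at 6 h after CHX against CHX alone, 1 and 2 at 1.5 and 12 h after CHX against the same hours of CORT, and 1, COL5A2, for the test of a different response. Arrays of the same number deviated together (median correlation 0.421, against -0.101 for other pairs), with 192 of 264 such pairs above 0.1. The labels give no pairing and the reported fit has no block, so this shared spread stayed in its estimate of spread within groups. The block added COL1A2, COL2A1, ITGA8, ITGB1 and ITGB1BP3 against CHX alone, and COL1A2, COL2A1, COL5A2, COL6A2, COL6A3, ITGAV and ITGB1BP3 against CORT 24 h, at 24 h after CHX. COL4A6 turned sign at 3 h of CORT, to -0.043 and -0.09 without replicate 2 (up to 0.656 without replicate 3) and -0.00 with 1 probe per gene, and against CORT 3 h to 0.06 with 1 probe. Why counts moved was not tested.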
